A study of Rattus norvegicus with 40 samples.

Results

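Adrenal glands of adult female rats of the outbred Sprague Dawley stock, taken after exposure to the 30x dose of a mixture of organophosphate esters, were compared with adrenal glands of female control rats. The libraries were taken by their labels, whose titles give the sex and the dose and whose value columns begin with F0F, and each of the groups held 5 libraries, so that 10 of the 40 libraries of the series entered the comparison. The labels do not state the amount behind 30x, what the controls received, or how long the exposure lasted, and they call the replicates biological without naming the animals. The other 30 libraries were females at 1000x and 30000x and males at the same 3 doses and as controls, 5 libraries in each of 8 groups in all.

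The adrenal gland has a cortex, which makes corticosteroids from cholesterol under the control of pituitary and renal signals, and a medulla, whose chromaffin cells make and release catecholamines. Organophosphate esters are used as flame retardants and plasticizers, and the comparison asks which adrenal transcripts differ in females at the lowest dose of the mixture. The files list genes by Ensembl identifier only and do not pair them with names. Since 0 of the 32545 identifiers appear in the gene table used here, no gene below is given a name or a role. The 21 lists of cortical, medullary, metabolic, stress and cell type genes, 291 symbols in all, were therefore not evaluated, nor was the tissue label checked against its markers. In whole glands a lower share of one cell type and less RNA per cell of that type cannot be told apart.

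Levels are FPKM, fragments per kilobase of gene length, scaled between libraries by size factors. A difference is given as 30x minus control in mean log2(FPKM + 1), a scale that understates the change of genes with low levels. The 10 libraries held 15738507 to 22545372 recovered reads. Recovered reads averaged 18627840 ± 2340812 at 30x and 17430671 ± 1196787 in controls (SD, n = 5 each; exact permutation p = 0.37, two-sided, adjusted p = 0.37 over the 3 library measures compared). Genes at 1 FPKM or more numbered 12374 ± 212 at 30x and 12503 ± 218 in controls (SD, n = 5 each), which also overlapped (exact permutation p = 0.36, adjusted p = 0.37). Correlations between libraries over the tested genes ran from 0.931 to 0.968 within groups (median 0.958, 20 pairs) and from 0.917 to 0.969 between groups (median 0.954, 25 pairs), so that a 30x library resembled a control library nearly as closely as another 30x library.

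No gene passed the test at 30x. Of 12439 genes that reached 1 FPKM in 5 or more of the 10 libraries, limma called 0 (0%) at a Benjamini-Hochberg adjusted p under 0.05, and the smallest adjusted p was 0.58. At an unadjusted p under 0.05 there were 603 genes higher at 30x (4.85% of those tested) and 428 lower (3.44%), 1031 in all (8.29%). With voom, a fit to the recovered reads, the count of calls was 0 too, with 640 higher and 441 lower at an unadjusted p under 0.05. When each library was scaled to its own total, the median difference over all genes was -0.21 in place of -0.004, and the split at an unadjusted p under 0.05 was 125 higher and 1686 lower, still with 0 calls. Leaving out female 30x replicate 2 or female control replicate 5 gave 1 call each, both of lower genes that are described below.

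Most differences were smaller than the SD between libraries of one group. That SD is of single libraries, and means of 5 libraries vary less. The median size of the difference was 0.15, against a median SD of 0.26 among the 5 libraries at 30x and 0.24 among the 5 controls, all on the log2(FPKM + 1) scale. The SD was larger at 30x than in controls in 53.7% of genes. A difference larger than the pooled SD within groups was found in 2947 genes (23.7%), and 95% of genes differed by less than 0.55. The 95% interval of the difference lay within ±1 for 88.6% of genes, with a median half-width of 0.36. Among genes averaging 5 FPKM or more in either group this share was 90.7%, and among genes shorter than 200 bp it was 19.1%, so that the shortest genes were the least precisely measured.

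**Figure D1:**
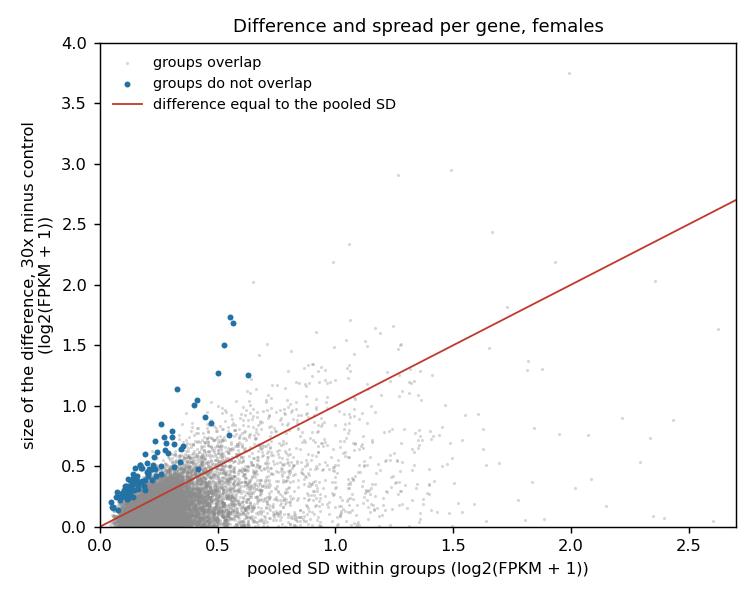
Size of the difference between female 30x and female control means (y axis, log2(FPKM + 1)) against the pooled SD within groups (x axis, same unit), 1 point per tested gene. Most points lie below the line where both are equal; blue points are the genes whose groups do not overlap, and they lie at low spread, with no difference above 2.

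All 5 libraries at 30x lay above all 5 controls in 35 genes (0.281% of those tested) and below all 5 controls in 65 genes (0.523%). Were the 10 libraries interchangeable, a gene would separate the groups in one direction or the other with a probability of 0.0079. Both shares together come to about that, so a lack of overlap does not mark a gene as changed. The 35 higher genes had a median difference of 0.44, from 0.14 to 1.73, and a median mean level of 15.7 FPKM, against 10.2 FPKM over all tested genes. The 65 lower genes had a median difference of -0.39, from -0.15 to -1.68, and a median mean level of 5.47 FPKM. The lower genes were also longer, with a median length of 2763 bp, against 2179 bp over all tested genes and 1444 bp in the higher genes. These leanings were not particular to genes without overlap. Of all tested genes of 3000 bp or more 33.3% were higher at 30x, and of those of 200 to 1000 bp 65.8%. By level, 34.6% of genes under 5 FPKM were higher, against 68.4% at 20 to 100 FPKM. A difference of at least 1 was reached by 4 of the 35 and by 4 of the 65. Unadjusted p-values ran from 1.2e-04 to 0.12 for the higher and from 2.0e-04 to 0.087 for the lower genes, and none passed the adjustment (limma, smallest adjusted p = 0.58).

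Among genes that averaged 5 FPKM or more in either group and whose groups did not overlap, ENSRNOG00000054517 (127 bp) was the one most above its controls. It had 16.4, 9.47, 18.7, 13.1 and 6.99 FPKM in the 5 libraries at 30x, against 3.47, 3.87, 1.29, 5.34 and 2.19 FPKM in the 5 controls. Every library at 30x was higher than the highest control, though the lowest at 30x and the highest control were close. The means were 12.9 ± 4.83 FPKM at 30x and 3.23 ± 1.56 FPKM in controls (SD, n = 5 each), a difference of 1.73 (SE 0.30, limma adjusted p = 0.58). These values rest on few reads, 18 to 38 per library at 30x and 3 to 14 in controls.

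ENSRNOG00000056200 (92 bp) was the next. It had 9.60, 13.1, 22.5, 9.34 and 14.5 FPKM at 30x, against 5.48, 5.94, 7.71, 7.36 and 4.24 FPKM in controls. The 2 lowest libraries at 30x were within 2 FPKM of the highest controls, and replicate 3 was the highest. The difference was 1.01 (SE 0.23, limma adjusted p = 0.58), from 11 to 33 reads per library at 30x and 7 to 14 in controls.

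ENSRNOG00000035576 (97 bp) was the one farthest below its controls. It had 0.828, 3.10, 1.94, 4.13 and 0.508 FPKM at 30x, against 7.79, 9.58, 8.43, 5.49 and 9.18 FPKM in controls. The controls ran from 5.49 to 9.58 FPKM and the libraries at 30x from 0.508 to 4.13 FPKM. The difference was -1.68 (SE 0.31, limma adjusted p = 0.58), from 1 to 7 reads per library at 30x and 11 to 17 in controls.

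ENSRNOG00000045829, the only one of the 4 that is long (3655 bp), had 1.58, 3.23, 3.43, 2.49 and 3.52 FPKM at 30x, against 4.00, 4.51, 11.8, 6.46 and 5.65 FPKM in controls. The control mean of 6.49 ± 3.14 FPKM included replicate 3 at 11.8 FPKM, and the mean at 30x was 2.85 ± 0.815 FPKM (SD, n = 5 each). The difference was -0.91 (SE 0.25, limma adjusted p = 0.58) and was -0.69 (SE 0.20, limma adjusted p = 0.91) without that control. This gene was counted with 72 to 261 reads per library at 30x and 232 to 794 in controls. For the 4 genes the direction held under each of the 19 alternatives that tested them, with adjusted p-values from 0.23 to 0.93. The genes were chosen from these same libraries for groups that do not overlap. Leaving out 1 library therefore could not turn their direction, and the held direction is not further evidence.

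**Figure D2:**
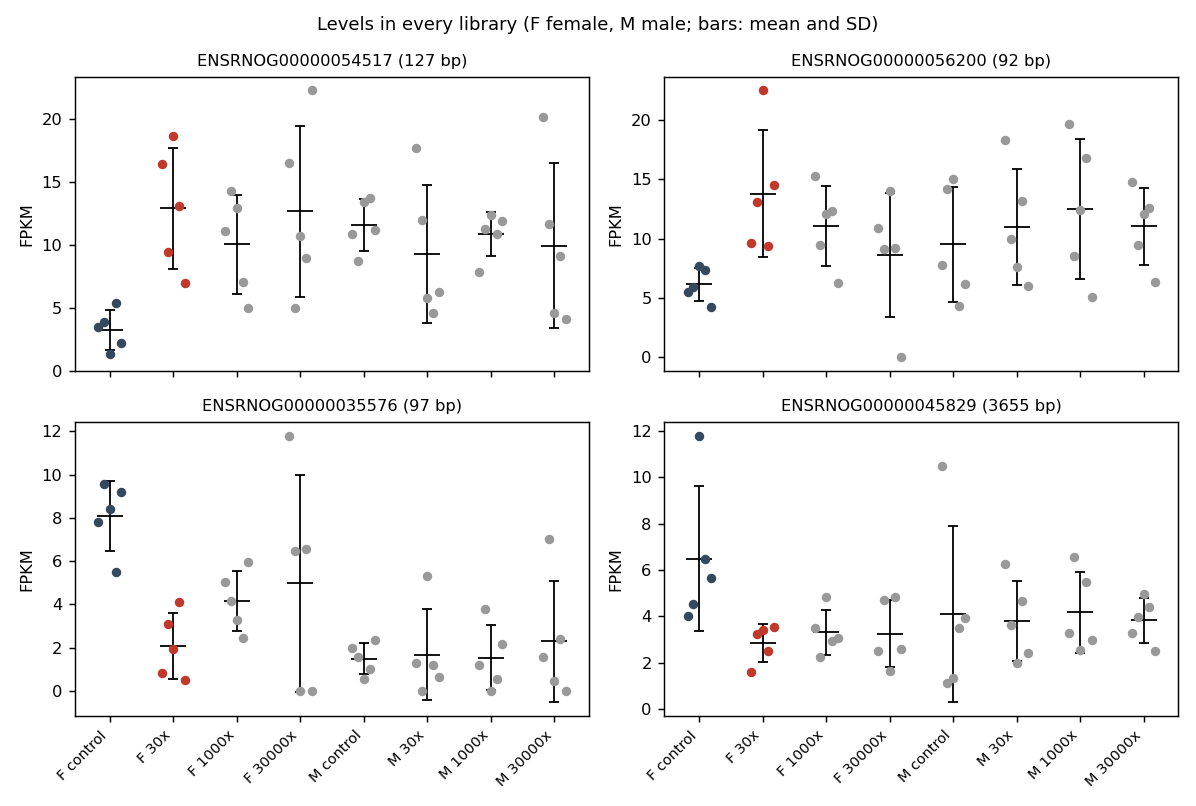
FPKM of the 4 genes in every library (y axis) by group (x axis, doses from low to high after the control of each sex; 5 points per group with mean and SD). Female 30x points (red) lie apart from female control points (dark blue) in each panel, for which the genes were chosen. The male groups (grey, like the higher female doses) overlap.

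The same 4 genes were read at the other doses and in males. The female comparisons at 1000x and 30000x use the same 5 controls, so their values are given side by side and not as further evidence. ENSRNOG00000054517 averaged 3.23 ± 1.56 FPKM in female controls, 12.9 ± 4.83 at 30x, 10.1 ± 3.95 at 1000x and 12.7 ± 6.80 at 30000x (SD, n = 5 each). Its 3 dosed groups overlapped each other, and its level in male controls was 11.6 ± 2.05 FPKM, about that of the dosed females. ENSRNOG00000056200 averaged 6.14 ± 1.42 FPKM in female controls, 13.8 ± 5.33 at 30x, 11.1 ± 3.38 at 1000x and 8.65 ± 5.23 at 30000x (SD, n = 5 each). ENSRNOG00000035576 averaged 8.09 ± 1.61 FPKM in female controls, 2.10 ± 1.53 at 30x, 4.17 ± 1.39 at 1000x and 4.98 ± 5.03 at 30000x (SD, n = 5 each). The 30000x libraries of this gene ranged from 0 to 11.8 FPKM and overlapped both the 30x libraries and the controls. ENSRNOG00000045829 averaged 6.49 ± 3.14 FPKM in female controls, 2.85 ± 0.815 at 30x, 3.32 ± 0.969 at 1000x and 3.25 ± 1.43 at 30000x (SD, n = 5 each).

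In males, whose libraries are independent of the female comparison, the difference at 30x was -0.43 (SE 0.30, limma adjusted p = 0.74) for ENSRNOG00000054517, which is the direction opposite to that in females. It was 0.23 (SE 0.35, limma adjusted p = 0.90) for ENSRNOG00000056200. It was -0.13 (SE 0.42, limma adjusted p = 0.96) for ENSRNOG00000035576. It was 0.12 (SE 0.43, limma adjusted p = 0.96) for ENSRNOG00000045829. The male values show no gene of the 4 past the test. Among the 4, the female change minus the male change was largest for ENSRNOG00000054517, at 2.16 (SE 0.45, limma unadjusted p = 1.3e-04). It missed the threshold once adjusted over all genes (limma adjusted p = 0.20). The female part of this value rests on the libraries from which the gene was chosen. The unadjusted p does not allow for that choice and is not further evidence.

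Most of the largest differences were in genes that were near 0 in some libraries and well above it in others of the same group. Among genes that averaged 5 FPKM or more in either group, the 5 largest differences upwards and the 5 downwards included 1 gene whose groups did not overlap, ENSRNOG00000054517. The gene with the largest positive difference (469 bp) had 75.0, 54.1, 0.534, 29.4 and 49.0 FPKM at 30x, against 12.6, 0, 0.116, 0 and 0.475 FPKM in controls. It was at 29.4 FPKM or more in 4 of the 5 libraries at 30x and under 1 FPKM in 4 of the 5 controls, and each group held 1 library on the other side. Its difference was 3.75 (SE 1.05, limma adjusted p = 0.58), beside an SD of 2.30 at 30x and 1.62 in controls on the same scale.

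The gene with the largest negative difference (1107 bp) had 0.725, 0.652, 5.60, 0.466 and 0.356 FPKM at 30x, against 27.3, 31.9, 22.6, 28.7 and 0.553 FPKM in controls. In 4 controls it was at 22.6 FPKM or more, and control replicate 5 was within the range of the 30x libraries. Its difference was -2.94 (SE 0.79, limma adjusted p = 0.58). Without control replicate 5 it was -3.78 (SE 0.41, limma adjusted p = 0.029), the 1 call of that fit. The 1 call without female 30x replicate 2 was a gene of 2650 bp with 0.212, 10.4, 0.543, 0.605 and 0.130 FPKM at 30x, against 5.23 FPKM in the lowest, 9.11 FPKM in the median and 10.6 FPKM in the second highest control. In 4 of the 5 libraries at 30x it was under 1 FPKM, and replicate 2 lay within the control range. Its difference without that replicate was -2.95 (SE 0.27, limma adjusted p = 0.0056), against -2.33 (SE 0.57, limma adjusted p = 0.58) with all 10 libraries. Both calls thus depend on leaving out the 1 library that went against the rest of its group.

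These wide ranges were also present at the other doses and in males. The gene with the largest positive difference had 0.391, 0.286, 0.339, 0.379 and 0.112 FPKM in females at 1000x and at most 0.319 FPKM in females at 30000x, so that the high levels at 30x were not seen at either higher dose. In males it reached 42.9 FPKM in 1 of 5 libraries at 30x and 64.3 FPKM or more in 2 of 5 at 1000x. Over all 40 libraries it was at 5 FPKM or more in 9 and under 1 FPKM in 31. The gene with the largest negative difference was under 1 FPKM in each female library at 1000x and in 4 of 5 at 30000x, where replicate 3 had 29.7 FPKM. In male controls it was at 0.725 to 4.32 FPKM and in males at 1000x at 0.250 to 56.3 FPKM. Over all 40 libraries it was at 5 FPKM or more in 11 and under 1 FPKM in 25. The next gene downwards (2069 bp) had 0, 1.13, 0, 1.02 and 4.22 FPKM in females at 30x, against 7.98, 28.2, 2.00, 15.9 and 39.7 FPKM in female controls. Its groups overlapped through control replicate 3 and 30x replicate 5 alone, and its difference was -2.91 (SE 0.67, limma adjusted p = 0.58). In male controls the same gene was at 0.0276 to 1.02 FPKM. The next gene upwards (1131 bp) had 3.12, 7.71, 4.93, 14.7 and 3.75 FPKM in females at 30x, against 0, 0, 0.193, 5.39 and 0.0492 FPKM in female controls. All 5 libraries at 30x were above 3 FPKM, control replicate 4 was the only control above 1 FPKM, and the difference was 2.19 (SE 0.53, limma adjusted p = 0.58). In females at 1000x and 30000x it was under 1 FPKM in 4 of 5 libraries each.

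Genes of this kind were counted as those with 1 library under 1 FPKM and another at 5 FPKM or more in the same group. There were 342 of them among the tested genes (2.75%), 211 at 30x and 209 in controls. They made up 43 of the 107 genes (40.2%) with a difference of at least 1, and 8 of the 10 genes with the largest differences. Of the 43, 41 had the same wide range in at least 1 of the other 6 groups, and of all 342 genes 246 did. Since a wide range within a group is part of what gives a large difference, these shares describe the genes and test nothing.

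A difference of at least 1 was found in 71 genes higher at 30x (0.571% of those tested) and in 36 genes lower (0.289%). The split turned with library totals, to 37 higher and 71 lower, and without female 30x replicate 1, to 44 higher and 48 lower. Of the 71, 18 stayed at 1 or more whichever library was left out, and of the 36, 17 did. The library whose removal took the most genes under 1 was female 30x replicate 1, with 38 genes, followed by female control replicate 3 with 33 and female 30x replicate 3 with 30. Genes shorter than 200 bp made up 3.16% of the genes tested (393 genes), 22 of the 71 and 19 of the 36. A mean under 30 reads per library was found in 24 of the 71 and 21 of the 36. Groups that did not overlap were found in 4 of the 71 and 4 of the 36, against 0.281% of all genes tested upwards and 0.523% downwards. Since a large difference itself makes overlap less likely, these counts test nothing.

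The differences varied with the level of the gene. Among the 705 genes that averaged 100 FPKM or more, 87.0% were higher at 30x, with a median difference of 0.23. Among 3165 genes of 20 to 100 FPKM these values were 68.4% and 0.09, among 4816 genes of 5 to 20 FPKM 42.7% and -0.04, and among 3753 genes under 5 FPKM 34.6% and -0.09. Over all genes tested 49.3% were higher and the median difference was -0.004. Of the 705 most abundant genes, 120 were higher and 5 lower at an unadjusted p under 0.05, and 0 passed the adjustment (limma). Of all 12439 genes tested, 603 (4.85%) were higher and 428 (3.44%) lower at that unadjusted threshold. In 1 of the 705 the groups did not overlap, against 35 upwards (0.281%) and 65 downwards (0.523%) of all genes tested. The 705 thus held a larger share of higher genes, and smaller shares of lower genes and of genes without overlap. A difference larger than the pooled SD within groups was found in 341 of the 705 (48.4%), against 23.7% of all genes tested.

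**Figure D3:**
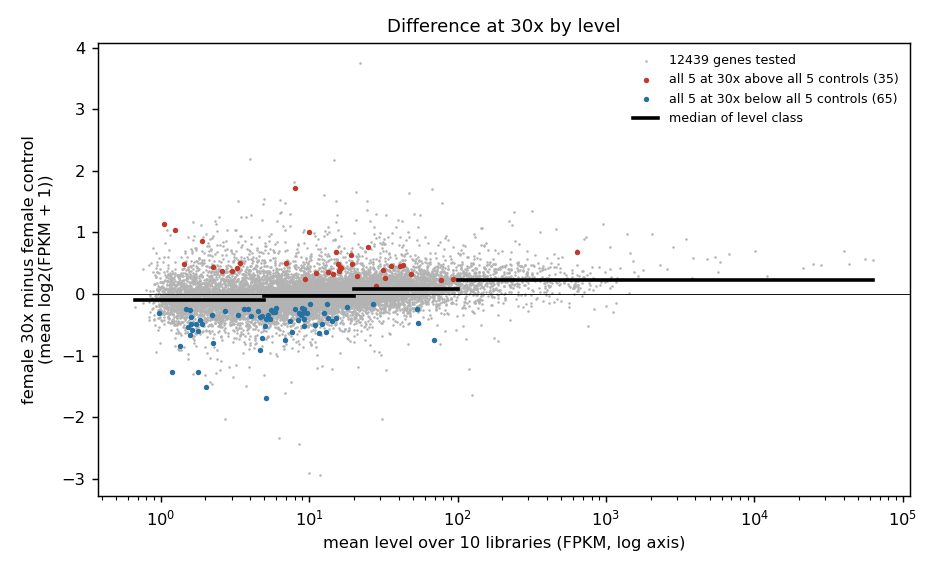
Difference between female 30x and female control means (y axis, log2(FPKM + 1)) against the mean level over the 10 libraries (x axis, FPKM, log axis), 1 point per tested gene. The black bars, medians of the 4 level classes, step from -0.09 under 5 FPKM to 0.23 at 100 FPKM or more; 35 genes with all 30x libraries higher are red and 65 with all lower are blue.

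The same order was seen within classes of gene length. Among genes of 1000 to 3000 bp the median difference was -0.08 under 5 FPKM, -0.01 at 5 to 20 FPKM, 0.10 at 20 to 100 FPKM and 0.21 at 100 FPKM or more. Length had an order of its own, since at 5 to 20 FPKM the median was 0.07 for genes of 200 to 1000 bp and -0.08 for genes of 3000 bp or more. Leaving out any 1 of the 10 libraries kept the median of the most abundant class between 0.16 and 0.29, and that of the class under 5 FPKM between -0.13 and -0.06. With quantile normalization, which gives every library the same distribution of values, the medians of the 4 classes ran from -0.03 to 0.00. With scaling to library totals they were -0.25, -0.25, -0.15 and -0.01 from the lowest to the highest class, where 47.0% of the most abundant genes were higher. Under that scaling the classes below 20 FPKM were level with each other and the most abundant class was no longer above 0.

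The shift by level varied among the libraries of each group, and the groups overlapped. The median deviation of the 705 genes from the control mean was 0.49, 0.11, 0.20, 0.04 and 0.33 in the 5 libraries at 30x, against 0.28, -0.01, -0.17, -0.15 and 0.07 in the 5 controls. Control replicate 1 lay above 3 of the 5 libraries at 30x. Control replicates 3 and 4 were the lowest, and 30x replicate 1 was the highest.

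The first principal component of the 10 libraries, which held 31.8% of the variance of the tested genes, ordered them in nearly the same way. Its scores were 39.78, -6.61, 11.27, -3.83 and 21.09 at 30x, against 22.99, -16.24, -38.98, -32.42 and 2.96 in controls. Their sign is arbitrary and was set so that they rise with the read share of the 10 most abundant genes, given below. The groups overlapped, with control replicate 1 above 4 of the 5 libraries at 30x. Female 30x replicate 1 had the highest value of the 10 libraries in 2383 genes and the lowest in 2000, where equal parts for the 10 libraries would be 1244 and 1228. Female control replicate 3 came next, highest in 1684 and lowest in 1786. Female control replicate 5 was at the other end, highest in 667 and lowest in 486.

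The 10 genes with the most reads, 681 to 2296 bp long, took 37.8, 26.9, 33.9, 28.0 and 31.1% of the recovered reads at 30x, against 27.4, 26.8, 21.7, 23.4 and 29.3% in controls. The 2 lowest libraries at 30x were within the range of the controls. The mean share was 31.5 ± 4.43% at 30x and 25.7 ± 3.10% in controls (SD, n = 5 each), a difference of 5.81 percentage points. The exact permutation p was 0.048 (two-sided, adjusted p = 0.14), where 0.0079 is the smallest p that 5 libraries against 5 allow. All 10 genes had a positive difference, from 0.35 to 0.70 with a median of 0.51, and in none did the groups stand apart. The most abundant of them (1545 bp) had 111540, 55134, 80454, 58172 and 69055 FPKM at 30x, against 55216, 53785, 36393, 41308 and 65470 FPKM in controls. Its level at 30x was above the control range in replicates 1, 3 and 5 only, and its difference was 0.55 (limma adjusted p = 0.64). Across the 10 libraries the share followed the first principal component, with a Pearson r of 0.88 (permutation p = 6.4e-04, adjusted 0.0013) and a Spearman rho of 0.87 (permutation p = 0.0024, adjusted 0.0024). Without the 2 libraries farthest from the median share r was 0.87. The part of this share in the differences at 30x was not tested.

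**Figure D4:**
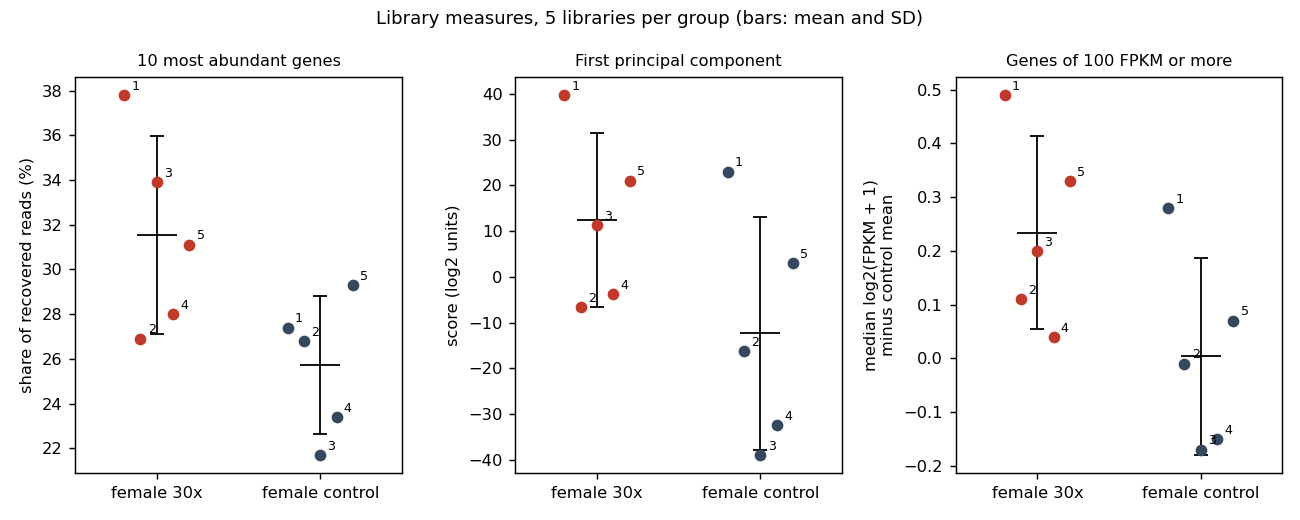
Percent of reads taken by the 10 most abundant genes (left), score on the first principal component (middle) and median deviation of the 705 genes of 100 FPKM or more from the control mean (right, log2(FPKM + 1)), for 5 female 30x and 5 female control libraries with mean and SD; numbers are replicates. The 30x mean is higher in each panel and the groups overlap in each, with 30x replicate 1 at the top and control replicate 3 at the bottom. The sign of the scores in the middle panel was set to rise with the percent in the left panel.

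Males at 30x gave the opposite order by level. The median difference in males was -0.05 for 711 genes of 100 FPKM or more, of which 33.3% were higher at 30x, and 0.03 for 3668 genes under 5 FPKM, of which 54.6% were higher. In males at 1000x and 30000x, set against the same male controls, the median of the most abundant class was -0.11 and -0.12. Of its genes 23.3% and 14.7% were higher at these doses, and the class under 5 FPKM had a median of 0.04 at each. In females at 1000x and 30000x, set against the same controls as 30x, the median was 0.07 and 0.17 for the most abundant class and -0.01 and -0.08 for the class under 5 FPKM. Genes at the female unadjusted threshold were also read in males. Of the 597 genes higher in females at 30x and tested in both sexes, 146 (24.5%) were higher in males at 30x, and of the 400 lower in females 263 (65.8%) were higher in males, where 50.2% of all 12069 genes tested in both sexes were higher. Of the 35 genes whose female 30x libraries were all higher, 7 were higher in males, and of 60 whose female 30x libraries were all lower, 41 (68.3%) were. The female sets therefore leaned in the other direction in males, by a small amount. The median male difference was -0.10 for the 597 and 0.08 for the 400. The sets were compared with all genes and not with genes of like level, and the part of level in this lean was not tested. In males alone, limma called 1 of 12401 genes (0.00806%), which was lower at 30x, and at an unadjusted p under 0.05 there were 403 higher (3.25%) and 555 lower genes (4.48%), 958 in all (7.73%). Whether the order by level differs between the sexes was not tested.

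A per-gene interaction term compared the change at 30x in females with that in males. Of 13222 genes tested in the 20 libraries, limma called 0 (0%), with a smallest adjusted p of 0.20. At an unadjusted p under 0.05 the female change was above the male change in 995 genes (7.53%) and below it in 683 (5.17%). With quantile normalization the split turned, to 771 above and 813 below. The difference between the sexes was therefore not shown for any single gene with all libraries. Leaving out female 30x replicate 5 gave 1 call, a gene of 1088 bp with a female minus male change of -1.13 (SE 0.17, limma adjusted p = 0.049). The number at an unadjusted p under 0.05 was 1108 without female control replicate 3, 1118 without female 30x replicate 1 and 2517 without female control replicate 1, in place of 1678.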

How the data were processed

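Total RNA from adrenal glands was extracted with an RNeasy kit and sequenced, per the labels' protocols, and the submitters' processing notes list HISAT2 2.0.5 and featureCounts 1.5.0-p3. As to the genome build, annotation and strand setting, these were not given in the sources used here. For each library the authors deposited 1 table of FPKM with 32545 Ensembl identifiers. None matched the gene table (GRCr8), so that at most 2 identifiers per direction are named: those with the largest difference among genes averaging 5 FPKM or more in either group, with no overlap between the groups. Other genes singled out by rank were chosen after their values were seen.

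Library scales, gene lengths and whole reads were solved from the FPKM values. For 20717 genes, 100.0% of 680244 nonzero values came within 0.05 of whole reads, and the scales matched size factors by the median of ratios (0.58 to 1.54 over all libraries). The 20 within-group pairs of libraries differed by more than sampling noise (chi-square of 19.6 to 91.1 per degree of freedom).

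The test was limma 3.58.1 (R 4.3.3; trended prior, two-sided) on log2(FPKM + 1) in the 10 libraries, for genes that reached 1 FPKM in 5 or more of them, with Benjamini-Hochberg adjustment over all genes tested. Males were fitted alike, and the interaction on 20 libraries. Library measures were compared by exact permutation (Python 3.11.15, scipy 1.17.1). Labels give no batch. The comparison, tests and lists were chosen with earlier results of these data known. The classes of level and length, the range of 1 to 5 FPKM within a group and the limit of 200 bp were added after seeing the data.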

Additional observations from a re-analysis of the deposited data

Results flagged for a closer look

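Of 36 groups of 5 libraries, 3 had 1 value that stood far from the rest, where chance gives about 1 in 20 groups of independent normal values. The gene with the largest positive difference was at 12.6 FPKM in female control replicate 1, against 0 to 0.475 FPKM in the other 4 controls. The gene with the largest negative difference was at 5.60 FPKM in female 30x replicate 3, against 0.356 to 0.725 FPKM in the other 4 libraries at 30x. ENSRNOG00000035576 was at 5.32 FPKM in male 30x replicate 3, against 0 to 1.29 FPKM in the other 4 male libraries at 30x. The first and second of these values come from genes that were chosen for their large differences.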

How the results depend on the processing

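For females at 30x the count of calls was 0 with all libraries and stayed 0 under each of 9 other settings (pseudocount of 0.1, no filter, quantile normalization, genes averaging 5 FPKM or more, library totals, array weights, replicate block, all 20 female libraries, voom) and with genes of at least 200 bp, an alternative chosen after seeing the data. The smallest limma adjusted p was 0.074 with array weights and 0.17 with the replicate block, in place of 0.58. It was 0.34 (library totals) to 0.75 (no filter) under the other settings. Leaving out 1 library gave 0 to 1 calls for females at 30x and 0 to 1 for the difference between the sexes. Without female control replicate 1 the smallest limma adjusted p for females at 30x was 0.088, with 0 calls. The number at an unadjusted p under 0.05 was 1031 with all libraries, 1636 with array weights, 1811 with library totals, and 507 to 2102 when 1 library was left out. It was 2102 without female control replicate 1, 507 without control replicate 3, 525 without control replicate 4 and 524 without 30x replicate 1. Genes with a difference of at least 1 numbered 316 with a pseudocount of 0.1, 308 with voom, 68 with a mean of at least 5 FPKM and 66 with genes of at least 200 bp, in place of 107, and 90 to 174 without 1 library (174 without control replicate 1). The labels number the replicates of both groups, and these numbers were not taken to pair the libraries: the correlation of same-numbered deviations was 0.00 to 0.24 over 5 pairs, above 0.1 in 3, and 2 of 5 libraries at 30x were most like the control of their own number. The replicate block gave 0 calls, 1746 genes at an unadjusted p under 0.05 and, for the sexes, 0 calls. The difference in the share of the 10 most abundant genes was 4.25 to 6.97 percentage points without 1 library, that in genes at 1 FPKM -212 to -69, and that in reads 217786 to 1622732, none past an adjusted p of 0.05. The medians of the gene lists were not run, since no identifier matched. Depth limits the shortest genes, whose values rest on few reads per library.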
